A study of Mus musculus with 16 samples.

Results

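The genes described here are 10 genes around activating transcription factor 4 (ATF4) in mouse stomach: the enzymes Phgdh and Psat1 of serine synthesis, Shmt2, Mthfd2 and Aldh1l2 of the mitochondrial folate pathway, the asparagine synthetase Asns, the stress regulators Chac1, Trib3 and Ddit3, and Atf4 itself. They were picked by symbol as 10 of the 24964 genes of the count table, and all 10 passed the filter on low counts that left 15385 genes. Aldh1l2 was picked because its response to condition A differed between the genotypes, so the differences of its level between groups are given as a description, with no test. RNA was sequenced from 16 libraries of 4 mm biopsies of the lesser curvature of the stomach corpus of female C57BL/6 mice aged 8 weeks, 4 in each of 4 groups. WT mice carried the normal gene for tristetraprolin (TTP), and the congenic TTPΔARE mice, written TTP in group names, carried an allele of that gene, Zfp36, which lacks the AU-rich element in its own transcript. In group A, per the labels, gastric inflammation had been induced by adrenalectomy, the removal of the adrenal glands. Group S is labelled with SPEM, spasmolytic polypeptide-expressing metaplasia, which is a mucous lineage of injured corpus glands; the labels do not say whether those mice were operated on, so S is used only as a group name. No agent or allele beyond these is given in the labels. Going by the study's title, which links TTP to metaplasia and inflammation of the stomach, the questions were how these genes responded to condition A in each genotype, and whether they differed between genotypes.

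Cells make serine from a glycolytic intermediate, and the mitochondrial folate enzymes pass the one-carbon unit of serine on to formate, which leaves for purine and thymidylate synthesis. ATF4 is a transcription factor whose translation is favoured when the factor eIF2alpha is phosphorylated, as happens when amino acids run short, in the unfolded protein response of the endoplasmic reticulum (ER) or in mitochondrial stress. It then induces the genes of serine synthesis, mitochondrial folate and asparagine synthesis, and the stress genes Chac1, Trib3 and Ddit3. In the stomach corpus, chief cells secrete large amounts of pepsinogen and carry a dense ER. Since control of ATF4 is largely translational, its transcript level does not measure its protein.

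ATF4 binds composite elements as a partner of C/EBP proteins, and the motif TGATGNAA, read on both strands (TTNCATCA on the other), is a simple form of their core. Promoter windows from RefSeq (build GRCm38.p6, 250 bases before to 50 after each start) were found for 9 of the 10 genes, with 2 windows for Psat1. The motif was in the windows of 3 members, Chac1, Trib3 and Asns, and in 3.97% of all 32851 windows of the same length (2.39% of the 15129 windows of tested genes). The stretches that hold it are shown 5′ to 3′ along the gene's strand, with the motif in capitals, because these 3 genes differ in how they behaved below. For Chac1 and Asns they are the 250 bases before the start, chr2:119350992-119351241 on the plus strand and chr6:7693210-7693459 on the minus strand. For Trib3 they are the 30 bases around the motif, chr2:152344028-152344057 on the minus strand.
Chac1: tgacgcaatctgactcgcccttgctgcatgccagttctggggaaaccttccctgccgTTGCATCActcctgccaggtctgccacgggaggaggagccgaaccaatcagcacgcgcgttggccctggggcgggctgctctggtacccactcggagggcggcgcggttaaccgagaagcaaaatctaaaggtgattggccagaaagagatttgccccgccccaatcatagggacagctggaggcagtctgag
Asns: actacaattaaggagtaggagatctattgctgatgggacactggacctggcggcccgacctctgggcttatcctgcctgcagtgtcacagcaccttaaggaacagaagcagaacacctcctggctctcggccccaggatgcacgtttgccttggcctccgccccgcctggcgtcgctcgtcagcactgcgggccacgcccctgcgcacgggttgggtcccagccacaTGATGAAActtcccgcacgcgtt
Trib3: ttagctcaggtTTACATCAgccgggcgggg
By the RefSeq starts, the first base of the motif lay 193 bases before the start in Chac1, read on the opposite strand, and 23 bases before the start in Asns, read on the gene's strand. In Trib3 it lay at base 15 of the RefSeq transcript, on the opposite strand. GENCODE M21, used for the gene positions below, starts Asns at chr6:7693254 and Trib3 at chr2:152344032, both on the minus strand. By those starts the motif lay within Asns and before the start of Trib3. These are matches of letters and do not show that ATF4 binds there.

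The corpus origin was checked on its defining transcripts. In each library the parietal markers summed to 14600 to 22100 CPM (a gene's counts scaled to the same library total) and the chief cell markers to 49000 to 153000 CPM. Zfp36, the gene that carries the allele, was at 55.1 to 88.6 CPM in the 8 WT libraries and 110 to 131 CPM in the 8 TTP libraries (log2 difference 0.98 in S, adjusted p = 0.00044, and 0.77 in A, adjusted p = 0.00159, edgeR). Total counts were 17453930 to 25849472 per library. The values of WT-A 3 and WT-A 4 stood apart, since genes with GC-rich transcripts lay above their median there (Spearman rho of that deviation with GC content 0.72 and 0.74 across genes, with 0.30 the largest absolute value in the other 14 libraries). Results are therefore also given from those 14 libraries, in which WT-A has 2. In these bulk samples, fewer cells of a type and less RNA per cell cannot be told apart.

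The members spanned a wide range of expression per length. Mean CPM per kb of exon was highest for Atf4, at 73.9 to 86.2 over the 4 groups, and next for Asns, at 44.2 to 66.9. Shmt2 followed at 10.9 to 12.9 CPM per kb, with Mthfd2 at 7.67 to 8.78 and Ddit3 at 6.64 to 8.29. Aldh1l2 lay at 2.19 to 5.01 CPM per kb, beside Phgdh at 3.09 to 4.47 and Psat1 at 2.67 to 3.70. Chac1 went from 1.59 in WT-S to 8.69 in TTP-A, and Trib3 was lowest in all groups, at 0.739 to 1.59. The ranges of Mthfd2 and Ddit3, and those of Aldh1l2, Phgdh and Psat1, overlapped, so no order is read among them. In the table of counts, Trib3 rested on 26 to 114 and Chac1 on 35 to 532 reads per library.

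Across the comparisons the set did not move together. A gene is called where its adjusted p in the edgeR quasi-likelihood test was under 0.05. Between WT-A and WT-S, 2 of the 9 members other than Aldh1l2 were called, Psat1 higher and Asns lower, where 18.8% of all genes tested were called (9.8% higher and 8.99% lower). Between TTP-A and TTP-S none of the 9 was called by edgeR or by DESeq2, and 2 had an unadjusted p under 0.05 (2.9% of all genes were called). TTP-S against WT-S gave the same counts among the 9, with 0.0325% of all genes called. TTP-A against WT-A gave 1 call, Asns, where 5.17% of all genes were called. The test of whether the response to A differed between genotypes called none of the 9 by edgeR or DESeq2, with 1 unadjusted p under 0.05 and 0.0585% of all genes called. The median log2 difference of the 9 was 0.19 in WT and 0.12 in TTP mice for A against S, beside 0.0094 and -0.001 over all genes, and -0.012 for the difference of the responses, beside 0.0019 over all genes. In the 14 libraries the calls were 2 of 9 in WT, Asns and Phgdh, both lower (10.5% of all genes), 0 in TTP mice (6.33%), 0 between genotypes in S (0.422%), 2 between genotypes in A, Asns and Phgdh (1.81%), and 0 for the difference of the responses (0.286%).

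**Figure D1:**
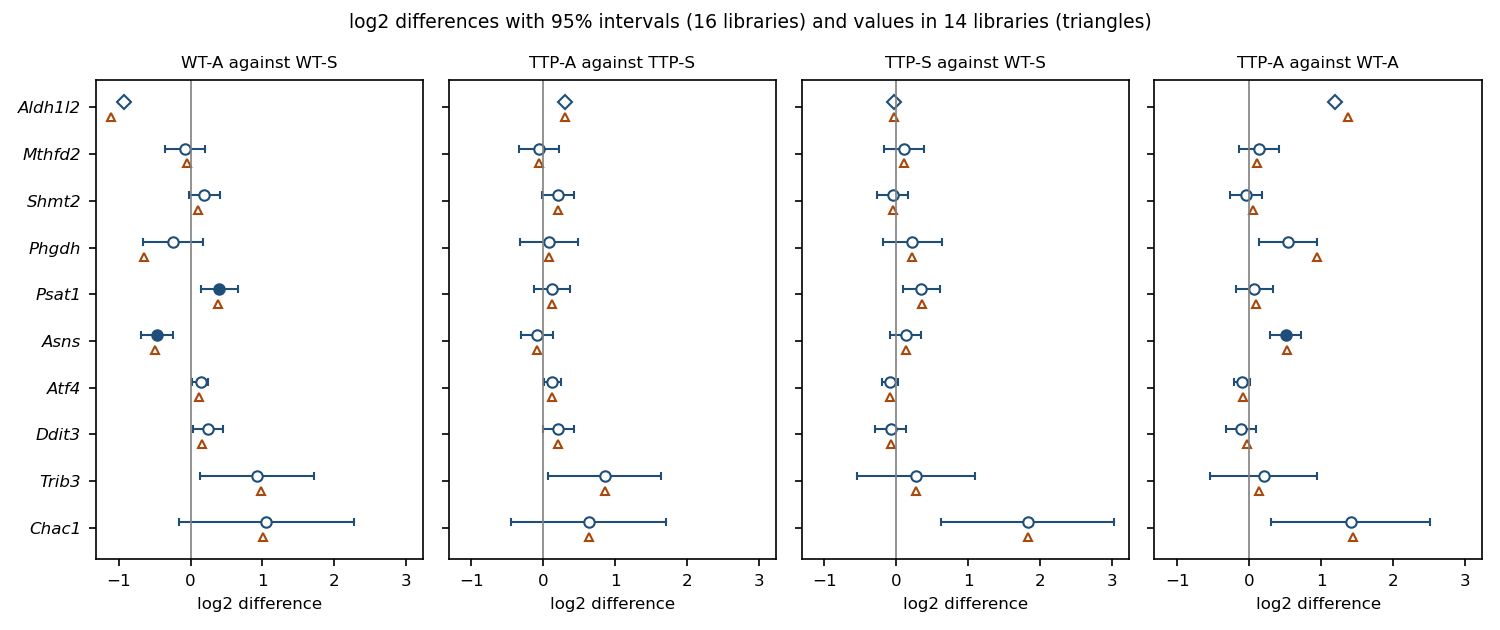
Log2 differences of the 10 members in the 4 pairwise comparisons, on 1 shared horizontal axis. Circles are values from 16 libraries with 95% intervals, filled where called; triangles are values from 14 libraries; diamonds are Aldh1l2, shown without interval or test. Filled circles stand at Psat1 and Asns for WT-A against WT-S and at Asns for TTP-A against WT-A, and the intervals of Chac1 and Trib3 are the widest.

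Aldh1l2, the mitochondrial formyltetrahydrofolate dehydrogenase that releases the one-carbon unit as carbon dioxide while making NADPH, lies at chr10:83487450-83534140 on the minus strand (GRCm38). Its levels were 24.5, 36.9, 36.4 and 27.4 CPM in WT-S 1 to 4, compared with 15.1, 13.9, 16.1 and 20.7 CPM in WT-A 1 to 4. They were 35.1, 29.9, 30.8 and 26.4 CPM in TTP-S and 36.1, 34.8, 44.7 and 34.9 CPM in TTP-A. All WT-A libraries were below every other library, and the other 3 groups, from 24.5 to 44.7 CPM, overlapped each other. The mean level was 31.3 ± 6.31 CPM for WT-S and 30.5 ± 3.61 CPM for TTP-S, against 16.4 ± 2.98 CPM for WT-A and 37.6 ± 4.77 CPM for TTP-A (SD, n = 4 each), so WT-A had 0.524 times the level of WT-S. The log2 difference of A from S was -0.93 in WT (-1.11 in 14 libraries) and 0.30 in TTP mice, and TTP-A exceeded WT-A by 1.20 (1.37 in 14 libraries). Between the genotypes in S the log2 difference was -0.04 (-0.14 to 0.05 over the alternatives). The low level in WT-A 3 and 4 (16.1 and 20.7 CPM) was not below that of WT-A 1 and 2 (15.1 and 13.9 CPM). An antisense gene, D10Wsu102e, shares 1056 exon bases with Aldh1l2. Whether the authors' counting used strand is not given in the sources used here, so reads in the shared bases cannot be assigned. D10Wsu102e itself was at group means of 26.2 to 29.5 CPM and was not called in WT (log2 difference -0.13, adjusted p = 0.185) or TTP mice (0.073, adjusted p = 0.722).

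The other mitochondrial folate enzymes, Shmt2 and Mthfd2, were called in none of the 5 contrasts in 16 libraries by edgeR. Shmt2 (chr10:127517123-127522444, minus strand), which splits serine into glycine and a one-carbon unit, was at 43.2, 31.4, 34.9 and 30.8 CPM in WT-S, compared with 39.5, 35.8, 40.7 and 44.3 CPM in WT-A. In TTP mice it was at 32.8, 34.7, 32.2 and 35.6 CPM in S and 43.4, 34.6, 36.5 and 41.4 CPM in A. The groups overlapped, and 3 of 4 TTP-A libraries were above all TTP-S libraries. The log2 difference of A from S was 0.19 in WT (SE 0.10, adjusted p = 0.180) and 0.20 in TTP mice (SE 0.10, adjusted p = 0.354). WT-S 1 held the highest WT-S value, and without it the WT difference was 0.31 (adjusted p = 0.0265).

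Mthfd2, the dehydrogenase and cyclohydrolase of that pathway (chr6:83305691-83325908, minus strand), was at 33.3, 27.1, 28.4 and 24.6 CPM in WT-S, compared with 29.8, 24.5, 24.5 and 28.1 CPM in WT-A. Its levels were 24.1, 36.2, 30.6 and 31.6 CPM in TTP-S and 33.8, 23.7, 27.7 and 32.6 CPM in TTP-A. The 4 groups overlapped, and the spread within the TTP groups was wider than any difference of means. The log2 difference of A from S was -0.081 in WT (95% interval -0.36 to 0.20, adjusted p = 0.680) and -0.056 in TTP mice (-0.34 to 0.22, adjusted p = 0.913). The difference of the responses was 0.025 (-0.37 to 0.42) for Mthfd2, and that of Shmt2 was 0.012 (-0.30 to 0.32); the value for Aldh1l2 was 1.23.

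The enzymes of serine synthesis had differences of opposite sign in WT. Phgdh, the first enzyme of the pathway (chr3:98313170-98339990, minus strand), was at 7.72, 9.42, 11 and 8.04 CPM in WT-S, compared with 4.55, 7, 8.47 and 10.7 CPM in WT-A. In TTP mice it was at 10.8, 8.93, 10.4 and 12.1 CPM in S and 10.1, 12.1, 12 and 10.3 CPM in A. Within WT-A, libraries 1 and 2 were below all WT-S libraries, and libraries 3 and 4, the pair that stood apart, were within the WT-S range. Its log2 difference of A from S in WT was -0.24 in 16 libraries (SE 0.20, adjusted p = 0.378) and -0.65 in 14 (SE 0.18, adjusted p = 0.0367). TTP-A exceeded WT-A by 0.54 in 16 libraries (SE 0.19, adjusted p = 0.0996) and by 0.94 in 14 (SE 0.18, adjusted p = 0.0213). In TTP mice A and S did not pass the test (0.076, 95% interval -0.33 to 0.48, adjusted p = 0.922), and neither did the difference of the responses (0.32, adjusted p = 0.567; 14 libraries 0.72, adjusted p = 0.201).

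Psat1, the aminotransferase that follows Phgdh (chr19:15904678-15947337, minus strand), was at 14.6, 11.6, 10.9 and 8.29 CPM in WT-S, compared with 14.5, 14.8, 14.8 and 15.8 CPM in WT-A. It was at 14.2, 14.9, 14.2 and 14.7 CPM in TTP-S and 16.3, 13.6, 17.3 and 15.8 CPM in TTP-A. WT-S 2, 3 and 4 were the lowest of the 16 libraries, and WT-S 1 lay with the other groups. Psat1 rose in WT-A by a log2 of 0.40 (SE 0.12, adjusted p = 0.0319), opposite in sign to Phgdh. The call was lost in 14 libraries (0.38, adjusted p = 0.114), in a fit of WT-A and WT-S alone (0.40, adjusted p = 0.134), and on leaving out WT-S 2, 3 or 4 or WT-A 3 or 4 (adjusted p = 0.0639 to 0.0749). In S, TTP mice exceeded WT by 0.35, which did not pass (unadjusted p = 0.0102, adjusted p = 0.445).

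Asns, which makes asparagine from aspartate and glutamine (chr6:7675169-7693254, minus strand), was the member other than Aldh1l2 with separated levels in the same 2 comparisons. Its levels were 147, 187, 165 and 171 CPM in WT-S, compared with 129, 110, 107 and 138 CPM in WT-A. They were 174, 199, 181 and 176 CPM in TTP-S and 145, 177, 199 and 165 CPM in TTP-A. All WT-A libraries were below all others, while both TTP groups overlapped WT-S and each other. Asns fell in WT-A by 0.47 on the log2 scale (SE 0.10, adjusted p = 0.00794; 14 libraries -0.49, adjusted p = 0.0182), and the call held in all 16 fits that left out 1 library, at most at an adjusted p of 0.0349 (WT-S 2 left out). TTP-A was above WT-A by 0.51 (SE 0.10, adjusted p = 0.0193; 14 libraries 0.52, adjusted p = 0.0352). That call was lost without WT-A 3 (0.45, adjusted p = 0.0676) or TTP-A 3 (0.42, adjusted p = 0.0709), and in a fit of those groups alone (0.50, adjusted p = 0.110). The log2 difference of A from S in TTP mice was -0.091 (95% interval -0.31 to 0.13, adjusted p = 0.772), and the difference of the responses, 0.38, did not pass (SE 0.14, unadjusted p = 0.0192, adjusted p = 0.258).

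The transcript of Atf4 itself (chr15:80255184-80257541, plus strand) varied little. In WT its level was 198, 180, 177 and 184 CPM for S, compared with 209, 192, 205 and 207 CPM for A. In TTP mice it was 178, 168, 180 and 171 CPM for S, compared with 187, 189, 204 and 180 CPM for A. Every TTP-A library was at or above the highest TTP-S library, and 3 of 4 WT-A libraries were above all WT-S libraries. The log2 difference of A from S was 0.14 in WT (SE 0.052, adjusted p = 0.0751) and 0.12 in TTP mice (SE 0.052, adjusted p = 0.242), neither called. In WT that of Atf4 was called without WT-S 1 (0.17, adjusted p = 0.0361) or WT-A 2 (0.16, adjusted p = 0.0430), and in 14 libraries its adjusted p was 0.210. The difference of the responses was -0.012 (95% interval -0.17 to 0.15), the narrowest interval among the members.

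Ddit3, which encodes the stress factor CHOP (chr10:127290774-127296288, plus strand), was at 11.9, 11.5, 11.8 and 12.9 CPM in WT-S, compared with 14.4, 12.4, 15.1 and 14.8 CPM in WT-A. In TTP mice it was at 10.9, 12.1, 12.3 and 10.1 CPM in S and 13.0, 11.2, 12.9 and 15.6 CPM in A. In each genotype 3 of 4 A libraries were above all S libraries, and library 2 of A was not. A differed from S by a log2 of 0.24 in WT (SE 0.099, adjusted p = 0.0956) and 0.21 in TTP mice (SE 0.10, adjusted p = 0.320). Without WT-A 2 the WT difference was 0.30 (adjusted p = 0.0462), and in 14 libraries it was 0.16 (adjusted p = 0.397). Ddit3 shares 68 exon bases with the antisense gene Mars.

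Trib3, a pseudokinase that restrains ATF4 and CHOP (chr2:152337422-152344032, minus strand), was at 2.35, 1.15, 1.45 and 1.33 CPM in WT-S, compared with 4.01, 2.14, 3.16 and 2.52 CPM in WT-A. It was at 1.90, 2.26, 1.73 and 1.62 CPM in TTP-S and 5.18, 1.59, 1.63 and 5.14 CPM in TTP-A. The TTP-A libraries fell in 2 levels, with 1 and 4 high and 2 and 3 at the TTP-S level, while in WT-A 3 of 4 were above all WT-S libraries. By log2, A differed from S by 0.92 in WT (SE 0.37, adjusted p = 0.0900; 14 libraries 0.98, adjusted p = 0.184) and 0.85 in TTP mice (SE 0.37, adjusted p = 0.262). Neither was called, and the difference of the responses was -0.078 with a 95% interval of -1.18 to 1.03.

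Chac1, which degrades glutathione and is induced by ATF4 (chr2:119351229-119354381, plus strand), varied widely between TTP libraries. It was at 3.75, 1.99, 2.90 and 1.79 CPM in WT-S, compared with 6.06, 4.35, 5.31 and 5.83 CPM in WT-A. It was at 3.73, 16.8, 8.79 and 7.43 CPM in TTP-S and 22.8, 3.33, 6.15 and 24.6 CPM in TTP-A. All WT-A libraries were above all WT-S libraries, but TTP-A 1 and 4 were several times higher than TTP-A 2 and 3. Condition A exceeded S by a log2 of 1.05 in WT (SE 0.57, adjusted p = 0.192), with an adjusted p of 0.0452 in a fit of WT-A and WT-S alone. In S, TTP mice exceeded WT by 1.83 (SE 0.57, unadjusted p = 0.00542, adjusted p = 0.391), and by 1.35 without TTP-S 2 (adjusted p = 0.754). TTP-A exceeded WT-A by 1.41 (SE 0.52, adjusted p = 0.106), and A exceeded S in TTP mice by 0.63 (SE 0.51, adjusted p = 0.640).

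**Figure D2:**
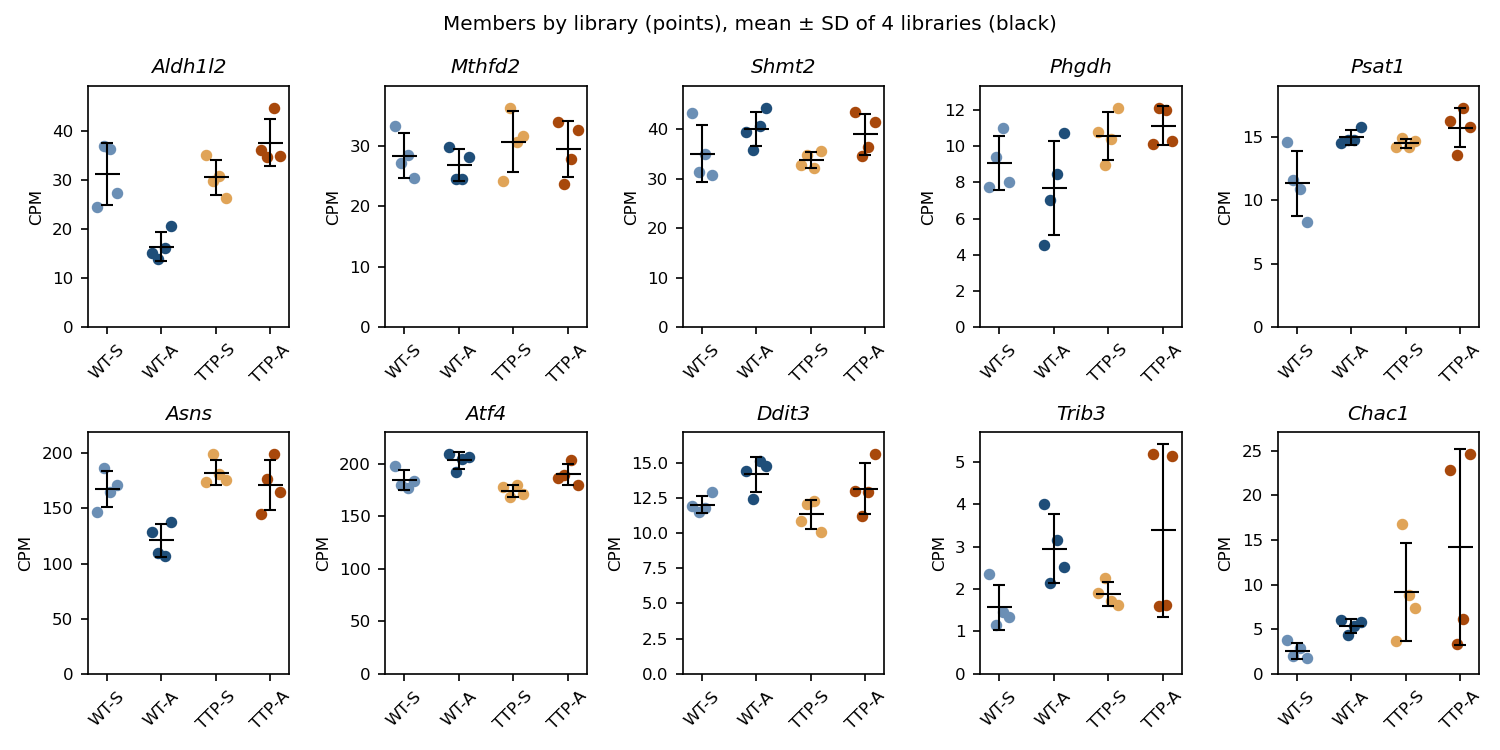
CPM of each member in the 16 libraries, with each vertical axis starting at 0; coloured points are libraries in the order of their number, and black marks are the mean ± SD of 4 libraries. The WT-A libraries are the lowest for Aldh1l2 and Asns, and 2 of the 4 TTP-A libraries are high for Chac1 and Trib3.

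Group separation was also counted without a model. Among the 9 members other than Aldh1l2, the CPM of WT-A and WT-S did not overlap for 2, Asns and Chac1 (17.7% of all genes tested), and those of TTP-A and TTP-S for 1, Atf4 (13.7%). Between genotypes no member separated in S (6.74% of all genes) and 1, Asns, separated in A (12.2%).

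Marker transcripts of several cell types differed in the comparisons in which Aldh1l2 and Asns did. The 5 chief cell markers summed to 78600, 153000, 131000 and 126000 CPM in WT-S 1 to 4, compared with 54900, 49000, 67000 and 104000 CPM in WT-A 1 to 4. They summed to 127000 to 134000 CPM in TTP-S and 93800 to 144000 CPM in TTP-A, and no marker was at 0 in any group. Pgc, a pepsinogen gene, made up nearly all of the sum, with group means of 65200 to 125000 CPM against 3580 CPM or less for any other marker. Of the 5, 3 fell and 1 rose in WT-A: Pgc fell by 0.82 on the log2 scale (SE 0.22, adjusted p = 0.0219), Gif, which encodes intrinsic factor, by 0.68 (SE 0.16, adjusted p = 0.0107) and the chitinase Chia1 by 1.65 (SE 0.25, adjusted p = 0.00147), while the pepsinogen gene Pga5 rose by 0.76 (SE 0.13, adjusted p = 0.00272). In TTP mice Bhlha15, the transcription factor of secretory cells, rose in A by 0.66 (SE 0.16, adjusted p = 0.0390), and the other 4 were not called. In TTP-A against WT-A 2 of the 5 were higher, Bhlha15 and Chia1. In 14 libraries 4 fell and 1 rose in WT-A, where Bhlha15 was added and Pgc was at -1.23 (adjusted p = 0.00539). In 14 libraries 3 were higher in TTP-A against WT-A, Bhlha15, Gif (0.75, adjusted p = 0.0126) and Pgc (1.19, adjusted p = 0.0201), and Chia1 was not called (adjusted p = 0.0926).

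Other lists were counted in the same 2 comparisons. Beside these counts and those of the chief cell markers, edgeR called 18.8% of all genes in WT-A against WT-S and 5.17% in TTP-A against WT-A. In 14 libraries these shares were 10.5% and 1.81%. Of 6 smooth muscle genes 5 rose in WT-A and TTP-A was below WT-A in 4; in 14 libraries the counts were 1 and 0. Their sum was 6580 to 7510 CPM in WT-S, 7820 to 9480 CPM in WT-A, 5750 to 8110 CPM in TTP-S and 6290 to 7530 CPM in TTP-A. Of 8 genes of SPEM and mucous neck cells 4 rose in WT-A (Gpx2, Dmbt1, Sox9 and Cd44) and TTP-A was below WT-A in 2, Gpx2 and Dmbt1 (in 14 libraries in Dmbt1 alone). Of 6 parietal genes 3 fell in WT-A (5 in 14 libraries), and 1, Kcne2, was higher in TTP-A than in WT-A (in 14 libraries Atp4b in its place, with Kcne2 at an adjusted p of 0.0599). Of 10 proliferation genes 4 rose in WT-A, Birc5, Ccnb1, Mki67 and Cdk1, in 16 and in 14 libraries. In TTP-A against WT-A 1 of the 10, Tk1, was lower, and it was not called in 14 libraries. The sum of the 10 was 211 to 275 CPM in WT-S, 276 to 346 CPM in WT-A, 236 to 299 CPM in TTP-S and 246 to 295 CPM in TTP-A, so the WT-A libraries were above all WT-S libraries and overlapped both TTP groups. Among immune markers tested, 2 of 2 neutrophil, 2 of 6 macrophage and 1 of 4 T cell genes rose in WT-A (1, 1 and 0 in 14 libraries). None of these 12 was called in TTP-A against WT-A in 16 libraries by edgeR, with 3 at an unadjusted p under 0.05 and 3 called by DESeq2, and 1, Cd4, was higher there in 14. In 16 libraries edgeR called none of 4 surface mucous genes in WT-A, with 3 at an unadjusted p under 0.05 and 2 called by DESeq2, and none of 6 adipose genes, with 1 and 1; in 14 libraries the surface mucous gene Tff1 fell (-0.63, adjusted p = 0.0231). In TTP-A against WT-A edgeR called none of either list, with 0 and 2 at an unadjusted p under 0.05 and 0 and 1 called by DESeq2. Squamous genes, which mark the forestomach, varied from library to library, with sums of 1.53 to 242 CPM in WT-S, 48.8 to 979 in WT-A, 26.6 to 470 in TTP-S and 3.17 to 256 in TTP-A. The median log2 difference of the 7 was 2.74 in WT-A, with 1 called (2 in 14 libraries), and -2.23 in TTP-A against WT-A, with none called by edgeR or DESeq2 and none at an unadjusted p under 0.05 (in 14 libraries edgeR called none, with 3 at an unadjusted p under 0.05). In none of these lists was a gene at 0 throughout a group. The part of these transcripts in the group differences of Aldh1l2 and Asns was not tested.

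The variation within groups was set beside the chief markers after each library's log2 CPM was centred on its group mean, with the 5 markers weighted equally in 1 score. For Aldh1l2 and that score Pearson's r was 0.80 and Spearman's rho 0.72 over 16 libraries, given as a description. Without TTP-A 3 and WT-A 4, the 2 libraries farthest from the median of the chief score, r was 0.68, and without WT-A 3 and 4 it was 0.72. For Asns r was 0.71 (permutation p = 0.0222, adjusted p = 0.222 over 20 relations, those of the 10 members with chief and with proliferation scores), rho was 0.62 (permutation p = 0.0387, adjusted p = 0.381), and r was 0.50 and 0.81 without those same pairs. With the proliferation score r was 0.59 for Asns (permutation p = 0.0346, adjusted p = 0.231) and 0.43 for Aldh1l2. Phgdh had r = 0.55 with the chief score (permutation p = 0.139, adjusted p = 0.376). Of 8 exocrine pancreas markers 3 passed the filter on low counts; their list summed to 12400 to 18700 CPM in WT-S, 7480 to 14900 in WT-A, 13700 to 15000 in TTP-S and 13800 to 17300 in TTP-A. Clps, a colipase gene, made up nearly all of that sum. Cpa1 was at 0 in WT-A and both TTP groups, and Prss2 was at 0.102 CPM or less in every library. Among the 3 tested genes the signs differed. The log2 difference of Clps was -0.65 for WT-A against WT-S (adjusted p = 0.0233) and 0.61 for TTP-A against WT-A (adjusted p = 0.0578). In 14 libraries these were -1.04 (adjusted p = 0.00125) and 1 (adjusted p = 0.0035). Cela1 was at 0.28 (adjusted p = 0.0754) and -0.57 (adjusted p = 0.0149) in the same order. In 14 libraries its latter value was -0.59 (adjusted p = 0.031). Cel was called in neither (0.25 and 0.31). The part of chief cell or pancreatic transcripts in the group differences of Aldh1l2 and Asns was not tested.

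**Figure D3:**
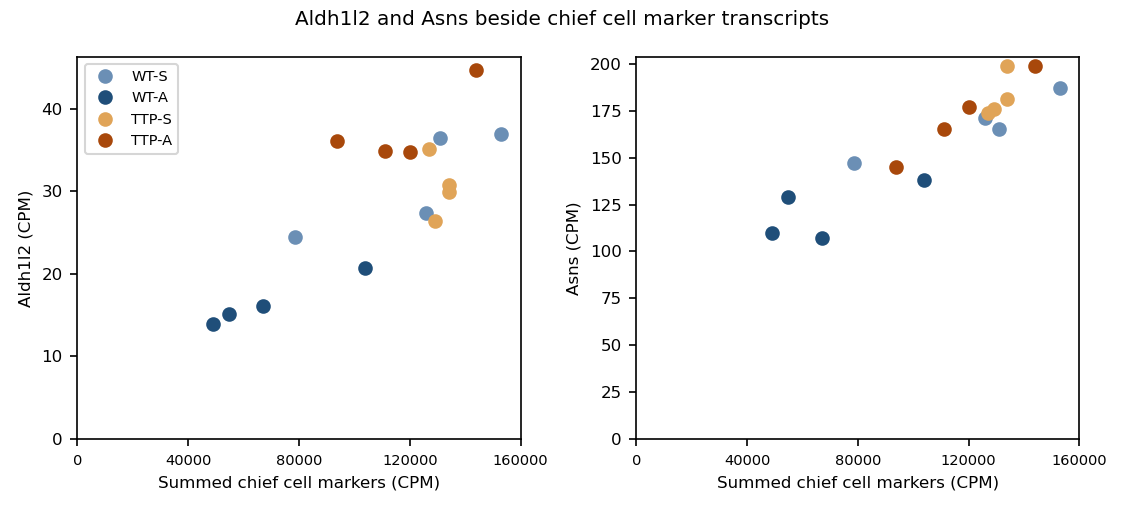
CPM of Aldh1l2 and Asns (vertical axes from 0) against the sum of 5 chief cell markers in CPM, with 1 point for each of the 16 libraries coloured by group. The WT-A libraries have the lowest Aldh1l2, at 13.9 to 20.7 CPM, and 3 of the 4 have the lowest sums, while WT-A 4, at 104000 CPM, lies within the range of the WT-S sums.

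Some members varied together between libraries within the groups. With the same centring, 45 pairs of members were compared by 100000 permutations within groups. Mthfd2 and Chac1 correlated at r = 0.90 (permutation p = 6e-05, adjusted p = 0.0027) and rho = 0.87 (permutation p = 8e-05, adjusted p = 0.0036). Shmt2 and Mthfd2, which act in sequence, correlated at r = 0.73 (permutation p = 0.00213, adjusted p = 0.0319) and rho = 0.78 (permutation p = 0.00199, adjusted p = 0.0448). These were the 2 pairs that passed on both measures. Shmt2 with Chac1 passed on Pearson's r alone (r = 0.67, permutation p = 0.00206, adjusted p = 0.0319; rho = 0.76, permutation p = 0.00764, adjusted p = 0.104), and Chac1 with Trib3 on neither (r = 0.83, permutation p = 0.00447, adjusted p = 0.0503; rho = 0.81, permutation p = 0.00927, adjusted p = 0.104). In the order given, r was 0.83, 0.66, 0.71 and 0.72 without the 2 libraries farthest from the median of the first-named gene (of Shmt2 in the third), and 0.91, 0.79, 0.70 and 0.84 without WT-A 3 and 4. Asns did not follow Mthfd2 (r = -0.084, permutation p = 0.779; rho = -0.035, permutation p = 0.907; r without TTP-A 2 and TTP-S 1 -0.14), and the Atf4 transcript did not follow Chac1 (r = -0.26, permutation p = 0.498; rho = -0.26, permutation p = 0.431; r without TTP-A 2 and 4 -0.21). For Asns r was -0.38 with Shmt2 (permutation p = 0.213) and -0.28 with Chac1 (permutation p = 0.44). For Atf4 it was -0.02 with Mthfd2 (permutation p = 0.95) and 0.23 with Shmt2 (permutation p = 0.493). Over the 45 pairs the median r was 0.059, and 28 were positive.

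**Figure D4:**
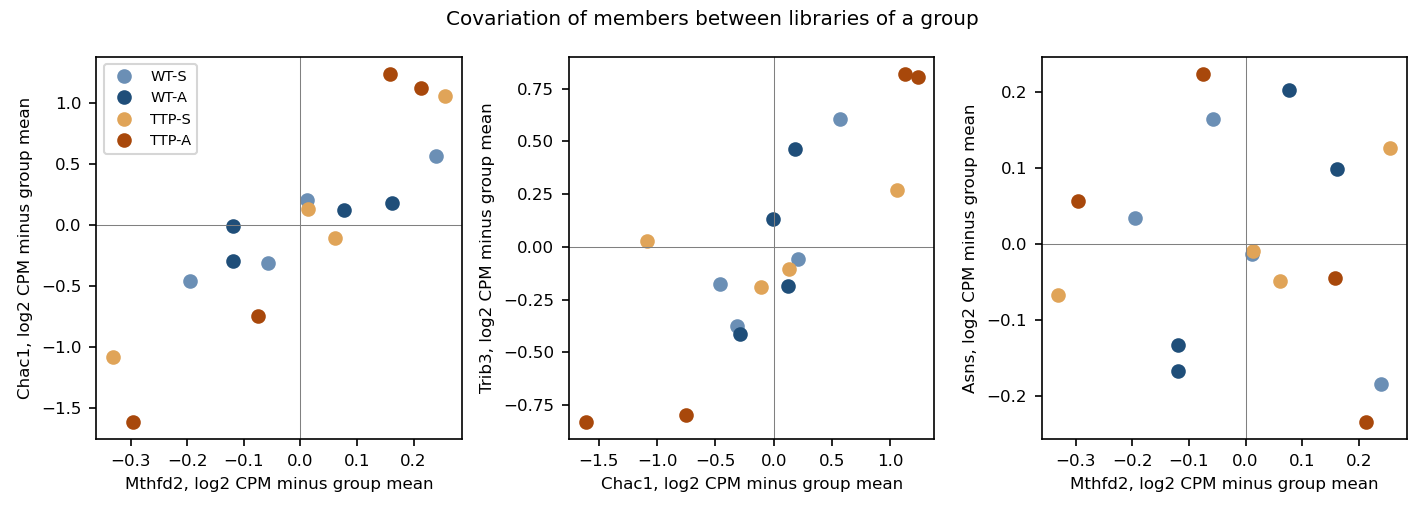
Log2 CPM minus the group mean for 3 pairs of members, with 1 point for each of the 16 libraries coloured by group. Chac1 rises with Mthfd2 (r = 0.90) and Trib3 with Chac1 (r = 0.83), and Asns shows no slope against Mthfd2 (r = -0.084).

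The wider pathways were followed in 7 lists of 79 genes, of which 77 passed the filter. In WT-A 10 of the 77 rose and 9 fell, where 9.8% and 8.99% of all genes did; in 14 libraries 5 rose and 16 fell, where 4.83% and 5.68% of all genes did. In TTP-A against TTP-S 3 rose and 4 fell (2.9% of all genes called), and in 14 libraries 4 rose and 4 fell (6.33%). In TTP-A against WT-A 5 were higher and 2 lower (5.17% of all genes called), and in 14 libraries 9 were higher and 1 lower (1.81%). The same shares of all genes stand beside the counts of the single lists below. Between genotypes in S edgeR called none of the 77, with 10 at an unadjusted p under 0.05, and DESeq2 called 2. For the difference of the responses edgeR called none in 16 libraries, with 10 at an unadjusted p under 0.05, and DESeq2 called 1. In 14 libraries edgeR called 3 of the 77 for that difference, where 0.286% of all genes were called: Pycr1, the last enzyme of proline synthesis (0.99, adjusted p = 0.0102), Fpgs, which adds glutamates to folate (0.58, adjusted p = 0.0281), and the transsulfuration enzyme Cbs (1.40, adjusted p = 0.0457). In all 3 the value was lower in 16 libraries, at 0.65, 0.30 and 0.75.

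Transcription factors and stress genes reported downstream of ATF4 had 8 calls in WT-A: 6 of 12 tested rose and 2 fell, with a median log2 difference of 0.36. In 14 libraries 4 rose and 2 fell. Atf5, a factor close to ATF4, went from 24.6 ± 0.976 CPM in WT-S to 39.5 ± 3.50 CPM in WT-A (log2 difference 0.68, SE 0.091, adjusted p = 0.000889). Nupr1, a stress-induced chromatin protein, went from 172 ± 15.4 to 361 ± 38.0 CPM (1.07, SE 0.19, adjusted p = 0.00297), and Eif4ebp1, an inhibitor of cap-dependent translation, from 12.7 ± 1.02 to 18 ± 0.988 CPM (0.50, SE 0.10, adjusted p = 0.00621). Vldlr, a lipoprotein receptor, fell from 52.3 ± 5.30 to 31.6 ± 4.51 CPM (-0.73, SE 0.11, adjusted p = 0.00154). All 4 were also called in 14 libraries.

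In TTP mice 2 of the 12 rose and 2 fell. Nupr1 went from 144 ± 6.22 to 324 ± 119 CPM (1.17, SE 0.19, adjusted p = 0.00604) and Atf3, an early stress factor, from 14.6 ± 4.39 to 26.9 ± 2.34 CPM (0.88, SE 0.19, adjusted p = 0.0222). Vldlr fell by 0.45 (adjusted p = 0.0417) and Stc2, a secreted glycoprotein, by 0.38 (adjusted p = 0.0260). For Nupr1 the difference of the responses was 0.10 (SE 0.27, adjusted p = 0.872), so no difference between genotypes was detectable. In condition A, TTP mice were lower in Cebpb, a partner of ATF4 (-0.68, SE 0.11, adjusted p = 0.00786), at 10.8 ± 1.81 CPM beside 17.4 ± 1.82 CPM in WT, and in Atf5 (-0.33, adjusted p = 0.0483), and higher in Vldlr (0.56, adjusted p = 0.0178); in 14 libraries only Cebpb of the 3 was called.

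Among amino acid enzymes and carriers fewer genes rose than fell: in WT-A 1 of 14 rose and 3 fell (9.8% and 8.99% of all genes), with a median log2 difference of -0.23, and in 14 libraries 1 rose and 6 fell (4.83% and 5.68% of all genes). The 3 genes added there were Pycr1 (-0.79, adjusted p = 0.00247), the transaminase Got1 (-0.40, adjusted p = 0.00839) and the carrier subunit Slc3a2 (-0.18, adjusted p = 0.0424). Pck2, the mitochondrial carboxykinase, rose from 10.6 ± 1.17 to 13.9 ± 0.168 CPM (0.39, adjusted p = 0.0143). The transsulfuration enzymes Cth (-0.40, adjusted p = 0.00966) and Cbs (-0.93, adjusted p = 0.0331; 14 libraries -1.58, adjusted p = 0.0018) and the transaminase Gpt2 (-0.25, adjusted p = 0.0264) fell. In S, Cth was at 20.4 ± 1.14 CPM in WT and 19.7 ± 1.58 CPM in TTP mice, and in A at 15.5 ± 2.04 CPM in WT and 20 ± 1.63 CPM in TTP mice. In Cth TTP-A exceeded WT-A by 0.37 (adjusted p = 0.0357), the 1 call of the 14 genes in that comparison. In 14 libraries 6 of the 14 genes were called there (1.81% of all genes), all higher in TTP-A: Cbs (1.55, adjusted p = 0.00449), Pycr1 (0.83, adjusted p = 0.00449), Cth, Slc3a2, Got1 and the cationic amino acid carrier Slc7a1. In 16 libraries none of the 14 genes was called in TTP-A against TTP-S by edgeR, with 5 at an unadjusted p under 0.05 and 1 called by DESeq2. In 14 libraries the cystine carrier Slc7a11 was called there (1.22, adjusted p = 0.0284; 16 libraries 1.22, adjusted p = 0.0591).

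Other genes of serine, glycine and folate metabolism gave 1 call in each list in WT-A in 16 libraries and 3 in each, all lower, in 14. In WT-A the mitochondrial serine carrier Sfxn1 fell (-0.27, SE 0.065, adjusted p = 0.0120), 1 of 10 in its list. In 14 libraries Sfxn1 (-0.18, adjusted p = 0.0429), the neutral amino acid carrier Slc1a4 (-0.34, adjusted p = 0.0285) and the glycine decarboxylase Gldc (-0.53, adjusted p = 0.0349) fell. Of 11 other folate genes, the mitochondrial folate carrier Slc25a32 fell (-0.57, adjusted p = 0.0370) and was not called in 14 libraries. There 3 of the 11 fell, of which Aldh1l1, the cytosolic relative of Aldh1l2 (-0.42, adjusted p = 0.0111), and Fpgs (-0.35, adjusted p = 0.0144) had the smallest adjusted p. In TTP-A Gldc fell from 118 ± 2.95 to 77.3 ± 17.6 CPM (-0.61, SE 0.13, adjusted p = 0.0260). TTP-A exceeded WT-A in Slc1a4 (0.42, adjusted p = 0.0270) and in Sfxn1 (0.23, adjusted p = 0.0496). In 14 libraries Slc1a4 (0.58, adjusted p = 0.00797) and Fpgs (0.48, adjusted p = 0.0115) were called there and Sfxn1 was not (0.14, adjusted p = 0.155).

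The counts for genes upstream of ATF4 translation, tRNA synthetases and ER chaperones stand beside 18.8% of all genes called in WT-A and 2.9% in TTP mice. None of 8 eIF2alpha kinases, subunits and phosphatase partners was called in WT-A by edgeR or DESeq2 (1 at an unadjusted p under 0.05), and the same counts held in TTP-A against TTP-S. Of 12 tRNA synthetases, Wars (0.31, adjusted p = 0.0263), Sars (0.20, adjusted p = 0.0282) and Cars (0.30, adjusted p = 0.0290) rose in WT-A, and none of the 3 was called in 14 libraries. Of 10 ER chaperone genes, Herpud1, of ER-associated degradation, fell in WT (-0.48, adjusted p = 0.00434) and TTP mice (-0.55, adjusted p = 0.00733). Edem1, of the same process, fell in WT-A (-0.41, adjusted p = 0.00794) and was 0.37 higher in TTP-A than in WT-A (adjusted p = 0.0327; 14 libraries 0.18, adjusted p = 0.141), and Xbp1, which drives the secretory programme, rose in TTP-A (0.25, adjusted p = 0.0385).

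**Figure D5:**
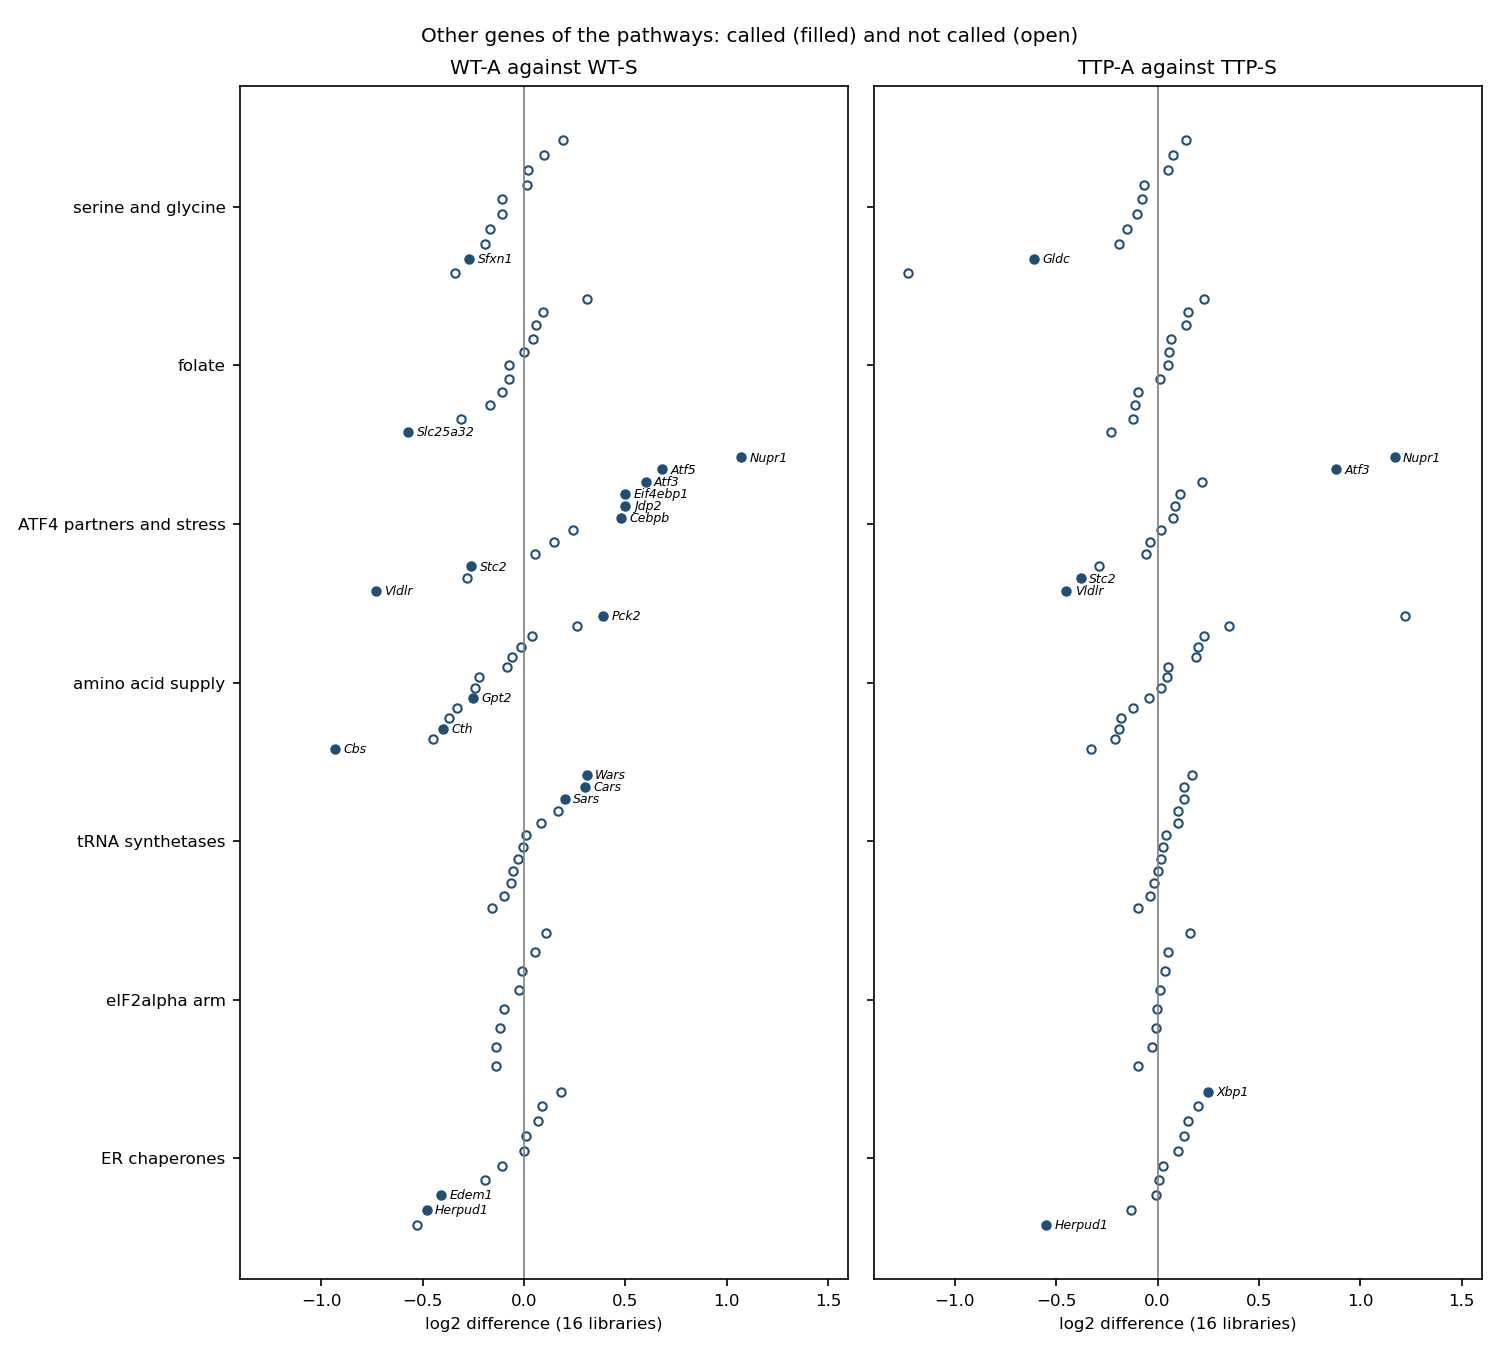
Log2 differences of the 77 tested genes of 7 pathway lists for WT-A against WT-S and TTP-A against TTP-S (16 libraries), 1 point a gene, spread vertically within its list. Called genes are filled and named: in the list of ATF4 partners and stress 6 stand to the right and 2 to the left in WT, and 2 on each side in TTP mice.

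The genes whose levels were most like those of Aldh1l2 over the 16 libraries were sought among 11306 genes with mean log2 CPM over 2. Symbols that start with Gm, AC or BC and a digit, or that end in Rik, had been left out. The 5 with the highest Pearson r of log2 CPM were Ces1e (0.92), Rasgrp3 (0.92), Ero1lb (0.92), Try10 (0.90) and Creg2 (0.90). With groups centred, r was 0.80, 0.62, 0.56, 0.85 and 0.74 in that order. Ero1lb, an oxidase of disulfide formation in secretory cells, had mean levels of 53.6 CPM for WT-S and 49.3 CPM for TTP-S, against 30.7 CPM in WT-A and 53 CPM in TTP-A. Try10, a trypsinogen gene, had mean levels of 7.72 and 7.47 CPM, against 3.8 and 7.91 CPM, in the same order. These values share libraries and scaling and are a description.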

How the data were processed

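The authors deposited read counts as whole numbers in 1 table of 24964 gene symbols and 16 libraries. Per the submitters' processing notes, the tools named are STAR 2.7.0f, featureCounts, Subread 1.6.4 and DESeq2, and the build is mm10. Annotation, strandedness and filters are not given in the sources used here. Groups came from the sample titles; the labels do not say that libraries are separate mice, so p-values measure the spread between these libraries.

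The counts were fitted with edgeR 4.0.16 in R 4.3.3: filterByExpr (15385 genes), trimmed mean of M-values scaling, 1 mean per group over 16 libraries, quasi-likelihood tests of 5 contrasts, and Benjamini-Hochberg adjustment over all genes. CPM were computed with the scaled totals. Correlations used log2 CPM (prior count 2) in scipy 1.17.1. Gene positions and exon lengths came from GENCODE M21 (GRCm38). The code was tested on simulated data. Members, lists and tests were chosen with earlier results of these data known. All 10 members are named; from other lists, at most 4 called genes per contrast with the smallest adjusted p. Genes named for calls in 14 libraries, and the marker lists described beside Aldh1l2 and Asns, were chosen after their values were seen. A further gene of the folate list is not reported here. Alternatives were DESeq2 size factors, the DESeq2 1.42.0 Wald test, no low-count filter, only the groups compared, a replicate block, 14 libraries, and leaving out each library. Correlations without WT-A 3 and 4 were added after seeing the data. Replicates of a group differed beyond sampling noise (chi-square over its degrees of freedom 4.9 to 94.7), and each library counted as 1 sample.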

Additional observations from a re-analysis of the deposited data

Results flagged for a closer look

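The Aldh1l2 level of TTP-A 3, 44.7 CPM, lay apart from the other 3 TTP-A libraries (34.8, 34.9 and 36.1 CPM): its gap to the nearest was 0.869 of the range of the group, above Dixon's critical value of 0.829 for 4 samples. It was the 1 flag among 40 groups of values, and chance flags about 1 group in 20. TTP-A 3 also had the highest chief cell marker sum of its group, 144000 CPM. Over all alternatives, those without that library included, the log2 difference of TTP-A from WT-A was 1.1 to 1.37.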

How the results depend on the processing

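Of 1090 values of members under the alternatives, 1035 were counted as unchanged. For the 9 members other than Aldh1l2 this means the same direction and side of the threshold. For Aldh1l2 it means a move of less than 0.23, the SD of its log2 CPM within groups. Fits that left out a library from a group outside the comparison gave nearly the same log2 difference by design. The values of Aldh1l2 kept their sign in WT (-1.11 to -0.84), in TTP mice (0.21 to 0.37), between genotypes in A (1.1 to 1.37) and for the difference of the responses (1.13 to 1.41), and not between genotypes in S (-0.14 to 0.051).

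The counts of genes called also moved, over all genes and among the members. For WT-A against WT-S (2891) they were 675 with only the groups compared, 1617 in 14 libraries, and 1252 (without WT-S 2) to 4982 (without WT-A 1) on leaving out 1 library. For TTP-A against TTP-S (446) they were 863 with the DESeq2 Wald test, 1195 with only the groups compared, 974 in 14 libraries, and 60 (without TTP-A 1) to 944 (without TTP-A 2). For TTP-S against WT-S (5) they were 100, 60, 65, and 1 (without WT-S 3 or 4 or TTP-S 2, 3 or 4) to 16 (without WT-A 1). For TTP-A against WT-A (796) they were 1636, 1, 279, and 90 (without WT-A 3) to 3205 (without WT-A 1). For the difference of the responses (9) they were 262 with DESeq2, 44 in 14 libraries, and 2 (without WT-S 3 or 4 or TTP-S 3 or 4) to 231 (without WT-A 1). The members called went from 1 (without WT-S 2, 3 or 4 or WT-A 3 or 4) to 4 (without WT-S 1 or WT-A 2) for WT-A against WT-S. For TTP-A against WT-A they were 0 with only the groups compared, 2 in 14 libraries, and 0 (without WT-A 3 or TTP-A 3) to 2 (without WT-A 4). The cause was not tested; fits on 14 libraries or only the groups compared hold fewer samples.

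Some uncalled values changed sign. In 14 libraries Shmt2 was 0.048 for TTP-A against WT-A, and for the difference of the responses Mthfd2 was -0.00072, Ddit3 0.047 and Atf4 0.0039. On leaving out 1 library, Mthfd2 was -0.14 to 0.0033 in WT and -0.16 to 0.036 in TTP mice, and Shmt2 -0.11 to 0.063 between genotypes in S and -0.095 to 0.012 in A. Trib3 was -0.081 to 0.43 between genotypes in A. For the difference of the responses, Shmt2 was -0.10 to 0.064, Mthfd2 -0.08 to 0.11, Chac1 -0.82 to 0.054, Trib3 -0.36 to 0.15, Ddit3 -0.12 to 0.038 and Atf4 -0.052 to 0.012.

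With the replicate number as a block, 2853, 427, 5, 624 and 4 genes were called in the 5 comparisons in the order above, and no call of a member changed. The numbers do not pair the samples: of 24 pairs of same-numbered libraries 5 correlated over 0.1 (-0.43 to 0.44). Trib3 and Chac1 had the widest intervals of the members; Trib3 rested on 26 to 114 and Chac1 on 35 to 532 reads per library, and the part of depth in those intervals was not tested.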
